A study of Hevea brasiliensis with 6 samples.

Results

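Leaves of the rubber tree (Hevea brasiliensis) clones ‘93-114’ and ‘Reken501’ were compared after 24 h at 4 °C, with 1 RNA-seq library for each clone, out of 6 libraries in the study. The 2 libraries were taken by their sample titles and joined by unigene ID. A unigene is a transcript sequence put together from the reads. Both libraries come from 1-year-old plants, and each holds RNA pooled from the leaves of 3 plants of its clone. The other libraries are the same clones without cold and after 1 h at 4 °C, also with 1 pool each. Each side of the comparison is therefore 1 genotype and 1 pool, and no difference given here has a replicate check. ‘93-114’ is described by the study as resistant to cold and ‘Reken501’ as sensitive to it, and setting them side by side at the same time of cold asks which transcripts differ between them late in the cold treatment.

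As background, chilling slows photosynthesis and stiffens membranes in leaves of tropical trees. In many plants, cold induces CBF/DREB transcription factors, which switch on genes that protect the cell. Heat shock proteins act as chaperones for proteins that lose their shape, and enzymes such as catalase, superoxide dismutase and peroxidases remove reactive oxygen species. Jasmonate, ethylene, auxin and abscisic acid signaling are known to act on the same response. The deposited tables name unigenes by number only, and 0 of their 167072 IDs match the 50196 genes of the RefSeq annotation. None of these pathways, and no marker gene of the leaf, could therefore be looked up, and no sequence of a unigene is held in the files used here. The results below describe unigenes by their ID, abundance, length and membership of a cluster, which is a set of similar assembled sequences called contigs.

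The libraries after 24 h held 21.6 M fragments in ‘Reken501’ and 21.9 M in ‘93-114’, M being the prefix mega, within the range of 20.4 M to 21.9 M over the study. A fragment was counted on 154268 unigenes in ‘Reken501’ and on 148455 in ‘93-114’. Of the 162550 unigenes with a fragment in either library, 140173 (86.2%) were read in both, 14095 in ‘Reken501’ only and 8282 in ‘93-114’ only. Most of those read in one library were rare, with a median of 4 fragments on either side. Counting error alone gives a ratio between libraries a 95% exact interval of 0.374 to 2.68 where both have 10 fragments, of 0.75 to 1.33 at 100 fragments and of 0.915 to 1.09 at 1000 fragments. These intervals, and every interval and limit below, cover counting error only and hold no spread between plants or pools.

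The fragments of chilled ‘93-114’ stood on fewer unigenes than those of chilled ‘Reken501’. After 24 h, 50% of the fragments lay on 156 unigenes in ‘93-114’ and on 445 in ‘Reken501’. Without cold these numbers were 788 and 708, and after 1 h they were 145 and 525. The clones thus stood close together without cold and apart at both times of cold, and the 24 h library of ‘93-114’ was like its own 1 h library. Levels set per length showed the same. An FPKM (the fragments set per kilobase of length and per M read in a library) of at least 1000 was reached by 92 unigenes in ‘93-114’ and 76 in ‘Reken501’ after 24 h, whereas an FPKM of at least 10 was reached by 7080 and 9389.

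**Figure D1:**
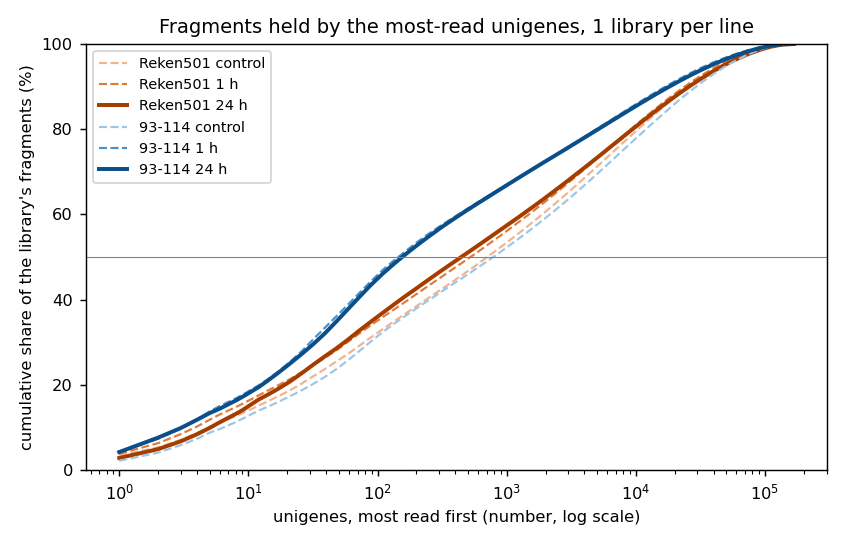
Cumulative share of each library's fragments (vertical axis, %) against the number of unigenes taken from the most read downwards (horizontal axis, log scale), 1 line per library. The ‘93-114’ line at 24 h passes 50% at 156 unigenes and the ‘Reken501’ line at 445, and the unchilled libraries pass it at 708 and 788.

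Expressed as a share of the library, 55182 unigenes had a larger share in ‘93-114’ after 24 h and 107368 a larger share in ‘Reken501’. Shares add up to the whole library, so the gains and the losses are equal in sum, and each came to 25.8% of a library. They were spread in different ways. The gains of 50 unigenes made up 50% of all gains, while 1515 unigenes were needed for 50% of the losses. The 20 largest gains held 33.5% of the gains and the 20 largest losses 15.1% of the losses.

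**Figure D2:**
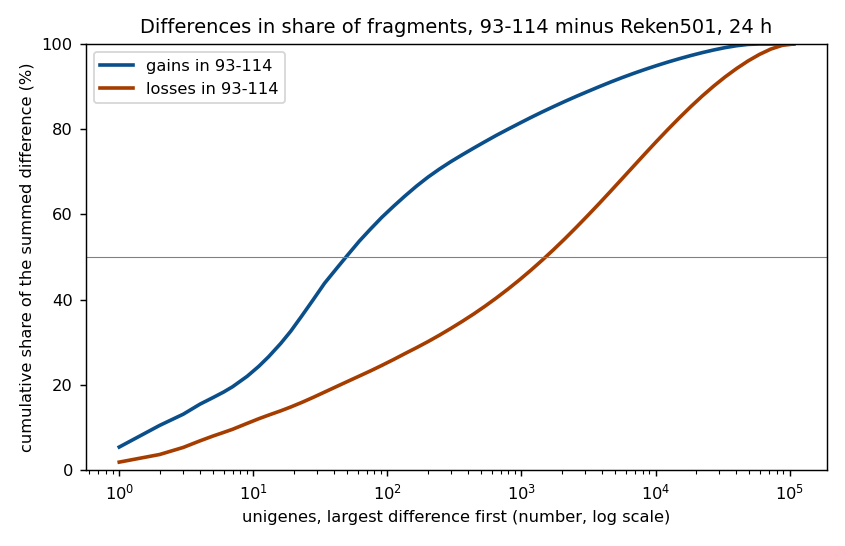
Cumulative share (vertical axis, %) of all gains and of all losses of ‘93-114’ relative to ‘Reken501’ in fragment share at 24 h, against the number of unigenes from the largest difference downwards (horizontal axis, log scale). The line of the gains passes 50% at 50 unigenes and that of the losses at 1515.

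The 20 unigenes with the largest gains took 19.9% of the fragments of ‘93-114’ after 24 h and 11.3% of those of ‘Reken501’. In the other libraries their share was 10.6% (‘Reken501’) and 10.8% (‘93-114’) without cold, and 12.6% and 21.3% after 1 h. Their log2 ratio of ‘93-114’ to ‘Reken501’ at 24 h lay between 0.45 and 6.64, and 15 of the 20 were also on the ‘93-114’ side without cold. By the rule for calls given below, 11 of the 20 were called higher after 24 h (19 with TMM scaling) and 5 without cold. The 20 largest losses took 6.6% of ‘93-114’ and 10.5% of ‘Reken501’ after 24 h, and 6.5% and 8.7% without cold. Of these, 18 were also on the ‘Reken501’ side without cold, and 9 were called lower after 24 h (7 with TMM scaling) and 11 without cold. With TMM scaling, 14 of the 20 losses had a log2 ratio below 0 at 24 h and the others changed side. TMM scaling moved every log2 ratio up by 0.44, so 0 of the 20 gains could change side, and the 2 groups cannot be compared in this. In sum, the large gains took about the same share of both clones before the cold, although 15 of the 20 leaned to ‘93-114’. This sum leans on its largest member, CL15970.Contig2_All, with 33803 fragments per M in unchilled ‘Reken501’ and 21742 in unchilled ‘93-114’. The large losses in sum already had the larger share in ‘Reken501’. Both groups were chosen for their difference at 24 h, so their values there are a description.

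The most-read unigene of both 24 h libraries was CL15970.Contig2_All, of 2286 bases. Its fragments numbered 613616 (2.84% of the library) for ‘Reken501’ and 928644 (4.24%) for ‘93-114’. Without cold it had 717264 and 442634, and after 1 h 819592 and 644057. With library totals it was the more abundant in ‘Reken501’ at both earlier times and the more abundant in ‘93-114’ after 24 h, by 1.49-fold (95% exact interval 1.49 to 1.5). The direction after 1 h turned with the scaling, as its log2 ratio there was -0.34 with totals and 0.15 with TMM scaling, while without cold it was -0.64 and -0.74. This is under the 2-fold limit of a call with library totals, while with TMM scaling the log2 ratio was 1.02 in place of 0.58 and the unigene was called. Of the 100 most-read unigenes of each 24 h library, 78 were the same in both libraries, and 53 of these 78 had the larger share in ‘93-114’.

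By a rule set on rank, 2 unigenes in each direction are described one by one. Unigene12214_All, of 1813 bases, had the largest gain in share among the unigenes called higher. After 24 h it had 41042 fragments (FPKM 1048) in the ‘Reken501’ library and 128684 (FPKM 3237) in that of ‘93-114’. Without cold the fragments were 25380 and 30778, and after 1 h 26247 and 179138. The clones lay close together without cold, at a ratio of 1.26 (95% exact interval 1.24 to 1.29), and apart in both cold samples, at 6.88 (6.8 to 6.97) after 1 h and 3.09 (3.05 to 3.12) after 24 h. With TMM scaling, explained below, its log2 ratio at 24 h was 2.07 in place of 1.63.

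Unigene10006_All, of 756 bases, had the largest log2 ratio among unigenes called higher with at least 200 fragments in ‘93-114’. After 24 h it had 0 fragments in the ‘Reken501’ library and 2885 (FPKM 174) in that of ‘93-114’, which is at least 947-fold higher when the count of 0 is taken to allow 3 fragments in that library. The 95% exact interval of the ratio, which is two-sided and so allows more fragments at 0, starts at 770. The fragments were 2 and 2492 without cold and 0 and 1899 after 1 h. The difference was therefore there at every time, with no more than 2 fragments in any ‘Reken501’ library.

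Unigene12919_All, of 2042 bases, had the largest loss among the unigenes called lower. After 24 h it had 172991 fragments (FPKM 3922) in ‘Reken501’ and 69632 (FPKM 1555) in ‘93-114’, 2.52-fold lower (95% exact interval 2.5 to 2.54). Without cold the fragments were 149057 and 51511, and after 1 h 151288 and 69440. The ‘Reken501’ libraries were high and the ‘93-114’ libraries low at all 3 times, with no overlap of the 6 counts. With TMM scaling its log2 ratio at 24 h was -0.89 in place of -1.33, which no longer reaches the limit of a call.

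CL15787.Contig3_All, of 5536 bases, had the largest log2 ratio in size among unigenes called lower with at least 200 fragments in ‘Reken501’. After 24 h its fragments were 7947 (FPKM 66.5) against 2, so that it was 4033-fold lower in ‘93-114’ (95% exact interval 1116 to 33309). Without cold it had 5148 and 0 fragments, and after 1 h 2316 and 0. It is 1 of 5 contigs of its cluster, and the other 4 contigs together had 5 and 0 fragments after 24 h, 386 and 0 without cold and 778 and 0 after 1 h. The whole cluster was thus read in ‘Reken501’ and, but for 2 fragments, not in ‘93-114’.

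**Figure D3:**
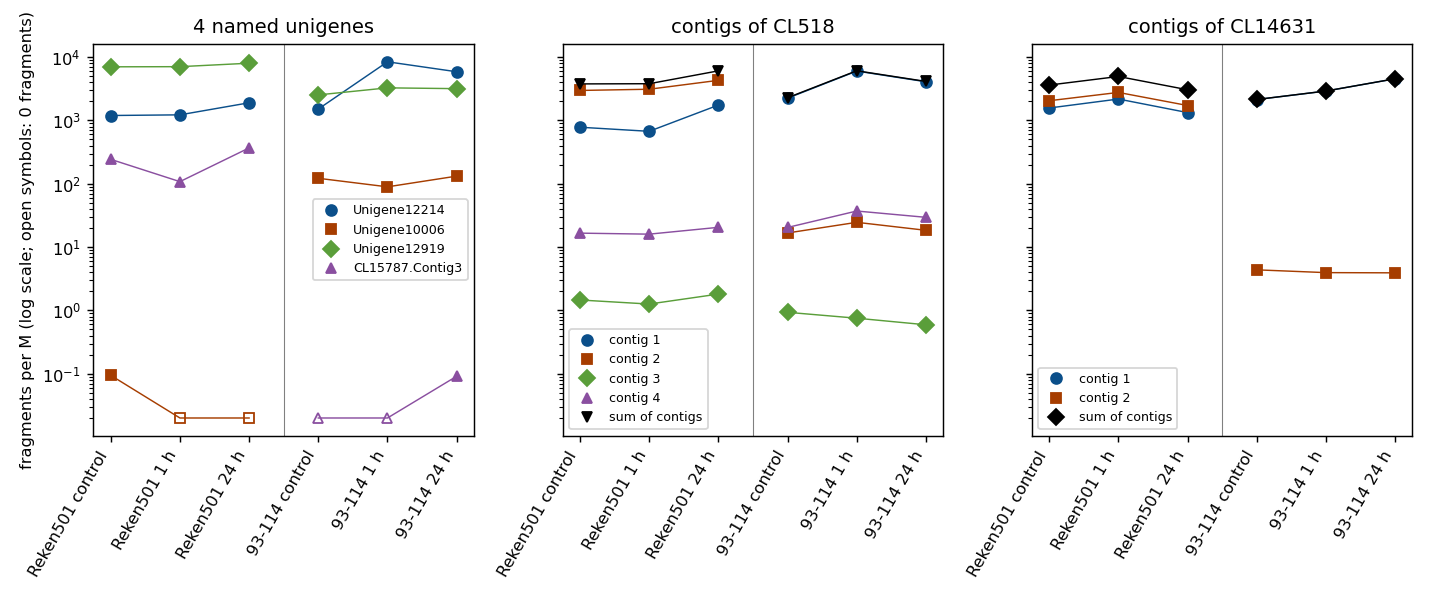
Fragments per M (vertical axis, log scale) of the 4 unigenes described one by one and of the contigs of CL518 and CL14631, with the sum over each cluster, in the 6 libraries (horizontal axis); each point is 1 library, lines join the libraries of a clone, and open symbols at the lower edge mark 0 fragments. Contig 2 of both clusters is high in the 3 ‘Reken501’ libraries and low in the 3 ‘93-114’ libraries, while the sums of the clusters differ far less.

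Between the 2 libraries, a unigene was called higher or lower in ‘93-114’ where the log2 ratio of its counts, each raised by 0.5 fragments, was 1 or more in size, with an adjusted p of 0.001 or less by a two-sided exact binomial test of its fragments. This test compares the 2 libraries, not the clones. With libraries set to their totals, 6698 unigenes were higher and 15926 were lower, which is 4.12% and 9.8% of those tested, and 13.9% together. The 90197 unigenes that averaged 10 fragments or more had a median log2 ratio of -0.464 (95% rank interval -0.473 to -0.454), and 67.6% of them had a log2 ratio below 0. TMM scaling, which sets the bulk of the unigenes in place of the totals to equal levels, moved every log2 ratio up by 0.44. The median was then -0.022, and 11108 unigenes (6.83%) were higher and 7858 (4.83%) lower, 11.7% together. The split of the calls thus turned with the scaling.

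Under both scalings, 6698 unigenes were called higher and 7858 lower, together 8.95% of those tested, and no unigene was called in opposite directions. These are the 14556 unigenes meant wherever calls under both scalings are given. The other 8068 unigenes called lower with totals and the other 4410 called higher with TMM each rested on the choice of scaling. The balance of the directions at larger log2 ratios also went with the scaling. With totals, lower unigenes stayed in the majority: 4084 unigenes were at least 8-fold lower and 2537 at least 8-fold higher, and 1499 were at least 32-fold lower and 1119 at least 32-fold higher. With TMM higher unigenes were in the majority, with 2459 lower and 3642 higher at 8-fold, and 1004 and 1601 at 32-fold.

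**Figure D4:**
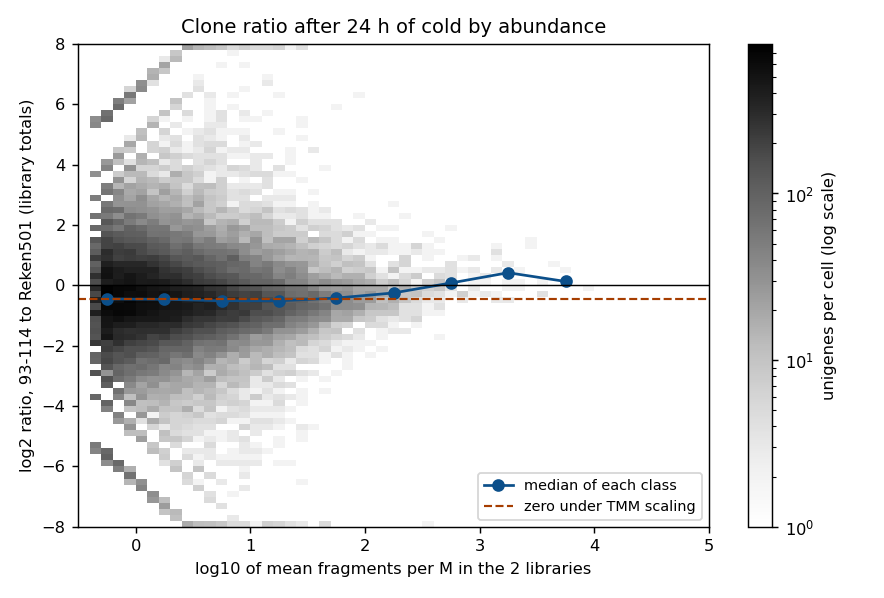
Log2 ratio of ‘93-114’ to ‘Reken501’ after 24 h, with library totals (vertical axis; ratios beyond 8 in size are drawn at the edge), against the log10 of the mean fragments per M in the 2 libraries (horizontal axis), over 90197 unigenes; darker cells hold more unigenes (log scale), the blue points are medians of abundance classes with at least 20 unigenes, and the dashed line is where the ratio is 0 under TMM scaling. The medians lie at -0.45 and -0.46 in the rarest classes and between 0.08 and 0.42 in the most abundant ones.

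The ratio changed with abundance. The 195 unigenes that averaged 10000 fragments or more over the 6 libraries held 41.6% of the fragments of ‘Reken501’ and 51.7% of those of ‘93-114’ after 24 h. Of these, 40 were called higher and 9 lower with totals, and their median log2 ratio was 0.25. Among the 439 unigenes with 3000 to 10000 fragments, 68 were higher and 51 lower, with a median of -0.17. Among the 12769 with 100 to 300 fragments, 1172 were higher and 3531 lower, with a median of -0.53. Under both scalings, 40 of the most abundant unigenes were higher and 7 lower, against 1172 higher and 1787 lower in the class of 100 to 300 fragments. The order of the class medians does not depend on the scaling, since a scaling moves all of them by the same amount.

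The share of unigenes called under both scalings rose with the fragments available, from 1.54% at a mean of 1 to 10 fragments, to 8.54% at 10 to 30, 19.4% at 30 to 100 and 23.2% at 100 to 300, against 8.95% over all. In the classes above it lay between 17.6% and 24.1%. Rare unigenes were thus called less often, and a difference in them was often not detectable at this depth. Length mattered less for the size of the ratio. With totals and a mean of 10 fragments or more, the median log2 ratio was -0.38 for lengths of 150 to 300 bases and -0.52 for 2000 bases or more. The spread of the ratios narrowed with length, from an interquartile range of 1.58 to 1.18 log2 units. It also narrowed with abundance, from 1.58 at a mean of 10 to 30 fragments to 0.92 at 1000 to 3000. In the classes above, it was 1.08 and 1.09. The length classes were not matched for fragments, and the part of depth in the trend with length was not tested.

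Under both scalings 12.6% of the 66698 contigs tested were called (3502 higher and 4889 lower), against 6.43% of the 95852 single unigenes (3196 higher and 2969 lower). Contigs were also the more abundant, since 45841 of them and 44356 of the single unigenes averaged 10 fragments or more in the 24 h libraries. Among these, 17.9% of the contigs and 13.1% of the single unigenes were called, so the gap was smaller. Contigs held 61.7% of the fragments of ‘Reken501’ and 61.6% of those of ‘93-114’, so the division of fragments between contigs and single unigenes was nearly the same in both clones. Among contigs, the share called under both scalings was 15.3% in clusters of 3 to 5 contigs and 7.27% in clusters of 21 or more.

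Some clusters, 1237 of the 15544 with at least 2 contigs read, held contigs called in opposite directions with totals. Of the 15544 clusters with at least 2 contigs read, 7429 had a contig called with totals. In 1237 of these (16.7%) at least 1 contig was higher and at least 1 was lower in ‘93-114’. When the fragments of all contigs of such a cluster were summed, 982 of the 1237 sums (79.4%) were not called. The clusters were chosen for calls in opposite directions, which offset each other in a sum, so this count is a description. With TMM there were 1211 such clusters, and 83.6% of their sums were not called. The study's methods name Bowtie2 and RSEM for counting on a genome-based set of transcripts, and whether the unigene counts were made in this way is not given in the sources used here. How fragments were divided between similar contigs is therefore not known, and a sequence difference between the clones and a difference in the amount of RNA cannot be told apart for these contigs.

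The clusters with the largest opposite pair of contigs, chosen after their values were seen, were CL518 and CL14631. In CL518, contig 1 (3602 bases) had 37715 fragments in the 24 h library of ‘Reken501’ and 89435 in that of ‘93-114’. Contig 2 (1229 bases) had 92784 and 403. The sum over its 4 contigs was 130980 and 90498, a log2 ratio of -0.55 that was not called. In CL14631, contig 1 (1102 bases) had 28720 fragments in the 24 h library of ‘Reken501’ and 99667 in that of ‘93-114’. Contig 2 (1036 bases) had 37157 and 86, and the sum was 65877 and 99753, a log2 ratio of 0.58 that was not called with totals. With TMM scaling the sums had log2 ratios of -0.11 and 1.02, and the latter was called. Contig 2 of either cluster was also nearly missing from the other ‘93-114’ libraries, with 339 and 523 fragments for CL518 and 89 and 84 for CL14631 without cold and after 1 h. The low counts of these contigs in ‘93-114’ were thus there at all 3 times, and both contigs of CL14631 had at least 28720 fragments in each ‘Reken501’ library.

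Unigenes with at least 10 fragments in one 24 h library and 0 in the other cannot change direction with the scaling. There were 2442 in ‘Reken501’ (1.5% of those tested) that held 0.318% of the library, and 1568 in ‘93-114’ (0.965%) that held 0.312%. They were short, with median lengths of 305 and 310.5 bases, and had medians of 15 and 17 fragments. Of the 1568 read in ‘93-114’, 1155 had 0 fragments in ‘Reken501’ also without cold, and 713 had in addition at least 10 in ‘93-114’ there. Of the 2442 read in ‘Reken501’, 1144 had 0 fragments in ‘93-114’ also without cold, and 245 had at least 10 fragments in unchilled ‘93-114’. In the other direction, 24 of the 1568 had at least 10 fragments in unchilled ‘Reken501’. Within these 2 sets, 245 of 2442 unigenes at 0 in chilled ‘93-114’ thus had at least 10 fragments in its unchilled leaves. For chilled ‘Reken501’ the number was 24 of 1568. The sets differ in size, and no such share over all unigenes was computed. The fragments of chilled ‘93-114’ also stood on fewer unigenes, as given above, and the part of this in these numbers was not tested.

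The same rule was applied to the libraries without cold and after 1 h, which share no library with the comparison at 24 h. Among all tested, 8.08% were called higher and 5.81% lower without cold with totals (13.9% together), and 5.37% and 11.7% after 1 h (17.1%). With TMM these were 7.18% and 6.64% without cold (13.8%) and 8.18% and 6.01% after 1 h (14.2%), and under both scalings 13.0% and 11.4% were called without cold and after 1 h. Of the 6698 unigenes that were higher at 24 h under both scalings, 3996 (59.7%) were also called higher under both without cold, against 7.18% of all unigenes tested there. Another 2663 were not called without cold and 39 were called lower. Of the 7858 lower after 24 h, 4136 (52.6%) were also called lower without cold, against 5.81% of all tested there, 3680 were not called and 42 were called higher. After 1 h, 67.7% of the higher and 60.5% of the lower unigenes had the same call, against 5.37% and 6.01% of all tested there. Many of all unigenes tested were rare and seldom called, as given above, so these shares are not matched for depth. Of the calls under both scalings, more than 50% in either direction were thus also found between unchilled leaves of the clones. This did not hold under each scaling alone, where 61.4% of the higher and 34.5% of the lower calls were also made without cold with totals, and 47.9% and 56% with TMM. The 6698 higher unigenes held 13.7% of the fragments of ‘93-114’ without cold, 21.7% after 1 h and 19.3% after 24 h, against 5.43%, 5.21% and 5.72% in ‘Reken501’. The 7858 lower ones held 3.23%, 1.89% and 1.69% in ‘93-114’, against 10.1%, 9.59% and 9.61% in ‘Reken501’. The shares of both groups thus moved more with time in ‘93-114’ than in ‘Reken501’, a difference that was not tested with 1 library per time. Both groups were chosen on the 24 h libraries, which pulls the values at that time apart. The bulk of unigenes also moved more in ‘93-114’. Over unigenes averaging 100 fragments or more, the median log2 ratio of 24 h to no cold was -0.65 in ‘93-114’ with totals. In ‘Reken501’ it was -0.19. The part of this in the shares of the groups was not tested.

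**Figure D5:**
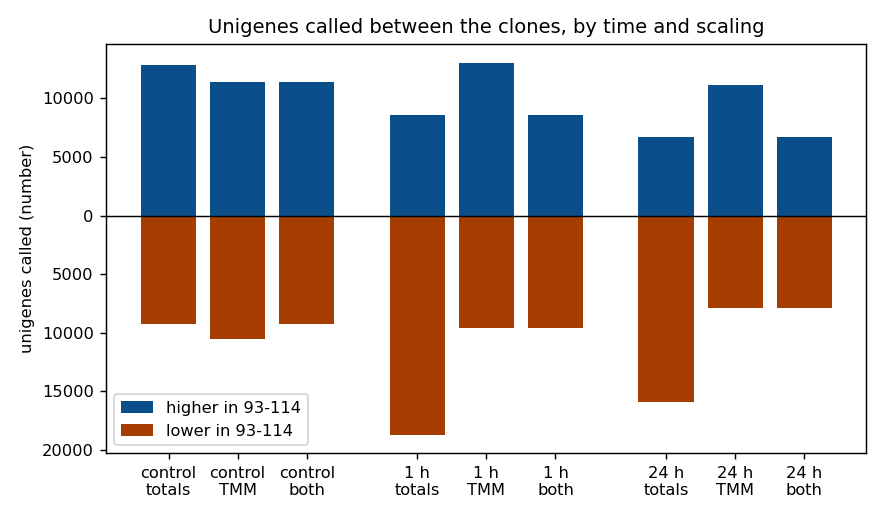
Numbers of unigenes called higher (upwards) and lower (downwards) in ‘93-114’ relative to ‘Reken501’, for leaves without cold, after 1 h and after 24 h (horizontal axis), with library totals, with TMM scaling and under both; each comparison is 1 library against 1 library. After 24 h the bars are 6698 and 15926 with totals, 11108 and 7858 with TMM, and 6698 and 7858 under both.

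A smaller number of unigenes differed after 24 h without the same call at either earlier time. Under both scalings there were 1474 such unigenes among the 6698 higher and 2359 among the 7858 lower. The higher ones were rare in ‘Reken501’ at every time, with medians of 0.189, 0.233 and 0.324 fragments per M without cold, after 1 h and after 24 h, and in ‘93-114’ the medians were 0.516, 0.565 and 1.82. The lower ones had medians of 1.89, 1.87 and 3.06 fragments per M in ‘Reken501’ and of 1.62, 0.894 and 0.593 in ‘93-114’. For the lower group the 24 h value was thus higher than without cold in ‘Reken501’ and lower in ‘93-114’. With totals, the median log2 ratios of the higher group were 0.95 without cold, 0.89 after 1 h and 2.42 after 24 h. Those of the lower group were -0.42, -1.22 and -2.32. Both groups thus leaned the same way at the earlier times. Rare unigenes were seldom called at this depth, so a missing earlier call does not show that a difference was absent. The groups were chosen on the 24 h libraries, which pulls the values at that time apart, and the change between times was not tested with 1 library each.

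As a check of the sample labels, the 24 h libraries were set beside the other libraries over unigenes averaging 100 fragments or more in the pair compared. After 24 h, 28.6% of 18834 unigenes lay at least 2-fold from the median ratio between the clones. The library of ‘93-114’ differed by that much from its own clone for 6.07% of unigenes at 1 h and 19.3% without cold. That of ‘Reken501’ differed for 8.26% at 1 h and 12.2% without cold. Each 24 h library was thus nearer to the libraries labelled as its own clone than to that of the other clone at the same time. The interquartile range of the log2 ratio was 1.12 between the clones at 24 h, 1.11 without cold and 1.3 after 1 h. Without replicate pools, the part of these spreads that comes from the choice of plants is not known.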

How the data were processed

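The authors sequenced leaf libraries on an Illumina platform, cleaned the reads of adapters and low quality, and deposited 4 unigene tables. The study's methods describe mapping to the rubber tree genome with HISAT, transcripts rebuilt with StringTie, and counting with Bowtie2 and RSEM, with genes named by scaffold. The deposited tables name assembled unigenes instead, so these steps may not be those behind the counts used here, and how the unigenes were assembled and counted is not given in the sources used here. The deposited counts are whole fragments per unigene, not normalized, and add up to the totals in the table headings. The FPKM deposited by the authors equals the count per kilobase and per M fragments to within 5.0e-05, and FPKM printed here was computed from the counts. The tables also hold the authors' own fold changes, p-values and false discovery rates, which were not used.

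Counts of the 6 libraries were joined by unigene ID, a unigene missing from a table being counted as 0. The log2 ratio, adding 0.5 fragments, the two-sided exact binomial test and the Benjamini-Hochberg adjustment over the unigenes read in at least 1 of the libraries were computed in Python 3.11.15 (numpy 2.4.6, pandas 2.3.3, scipy 1.17.1, matplotlib 3.10.9). TMM factors came from edgeR 4.0.16 and size factors from DESeq2 1.42.0, in R 4.3.3, over the 6 libraries. The calling was tested on simulated data. Total fragments per library were 20.4 M to 21.9 M. Where a 95% interval is printed, it is a Wilson one for the share of higher calls, an exact one for ratios and a rank one for medians. Other shares are given without an interval.

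Named unigenes were, in each direction, the called unigene with the largest difference in share and that with the largest log2 ratio at 200 fragments or more. The libraries, groups and rules were chosen with earlier results of these data known. Gene and pathway lists were not used, as the IDs carry no names.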

Additional observations from a re-analysis of the deposited data

Results flagged for a closer look

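The difference between the clones lay on opposite sides without cold and after 24 h for several results. Each time has 1 library per clone, so the difference between the times was not tested. With library totals, the log2 ratio between the clones (‘93-114’ over ‘Reken501’) had a median of 0.111 without cold and -0.464 after 24 h, over unigenes averaging 10 fragments or more in the pair. With TMM factors these medians were 0.006 (95% rank interval -0.004 to 0.015, which includes 0) and -0.022, and with DESeq2 size factors they were -0.009 and 0.043, the opposite order of signs. The most-read unigene, CL15970.Contig2_All, had a log2 ratio of -0.64 without cold and 0.58 after 24 h, which became -0.74 and 1.02 with TMM factors. With totals, 39 of the 6698 unigenes called higher after 24 h (0.582%) were called lower without cold. Of the 15926 called lower after 24 h, 186 (1.17%) were called higher without cold. Among all tested without cold, 5.81% were called lower and 8.08% higher, so these reversals were rarer than such calls over all. With TMM factors the reversals numbered 96 (0.864%) and 42 (0.534%), against 6.64% and 7.18% of all tested without cold. The larger group thus changed with the scaling. Under both scalings the reversals numbered 39 and 42. For the 186, the median fragments per M went from 1.65 without cold to 3.96 after 24 h in ‘Reken501’ and from 4.52 to 1.46 in ‘93-114’.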

How the results depend on the processing

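No paired analysis was possible because each clone has 1 pooled library per time, and for the same reason no library could be left out. Numbers of called unigenes are given as higher and lower in ‘93-114’, with the share that was higher. They were 6698, 15926 and 29.6% (95% Wilson interval 29.0 to 30.2) in the main setting. With TMM factors they were 11108, 7858 and 58.6%, and with DESeq2 size factors 11979, 7213 and 62.4%. Without the 1000 most-read unigenes in the totals they were 10006, 8963 and 52.7%, and leaving out the 100 most-read gave a share of 43.3%. A log2 ratio of at least 2 left 4022, 7835 and 33.9%, with 555 in place of 1237 clusters holding opposite contigs. The exact test of edgeR, with a coefficient of variation set to 0.2, left 2688, 4386 and 38.0%, and summing the contigs of a cluster, which leaves fewer features, gave 3903 and 9468. The median log2 ratio of -0.464 became -0.022 with TMM factors, 0.043 with DESeq2 size factors, -0.245 and -0.111 without the 100 and 1000 most-read unigenes, -0.478 at a mean of at least 1 fragment and -0.485 at 100. The numbers read only in ‘Reken501’ and only in ‘93-114’ were 823 and 686 at 20 fragments or more, 4261 and 2471 when 1 fragment was allowed in the other library, and 1599 and 1007 with contigs summed. As a check chosen after seeing the data, with TMM factors 47.9% in place of 61.4% of the higher unigenes were also called without cold, 56% in place of 34.5% of the lower ones, and 65.7% in place of 67.7% of the higher ones after 1 h. The cause of these moves was not tested beyond the settings' own construction. With library totals, the fewest fragments that gave a call were 14 in both libraries together, so a rarer unigene was not called in that setting. This limit is not the same with other scalings.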

Other observations

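With library totals, calls of single unigenes that follow each other in number were compared. After a unigene higher in ‘93-114’, the next number was also higher for 285 of 3173 (8.98%, against 3.40% over all 92954 such pairs) and lower for 10.1% (against 6.83%). After a lower one, the next number was also lower for 871 of 6363 (13.7%, against 6.83%) and higher for 4.53% (against 3.40%). Calls of either direction were thus more frequent next to a called unigene. Of the 9 single unigenes among the 20 largest gains, 5 lay within 10 numbers of another of these 9, and of the 11 among the 20 largest losses, 2 did. No such share was computed over all single unigenes, and nearness across the directions was not counted. The gain of rank 12 (log2 ratio 2.66) and the losses of rank 8 (-0.91) and rank 1 (-1.33) carry successive numbers. The sources used here do not say how the numbers were given.

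Of the 6698 unigenes called higher after 24 h with totals, 1158 had the same call after 1 h but not without cold. Another 736 had it without cold but not after 1 h. With TMM factors these numbers were 2864 and 886 of 11108. Among those called lower they were 4933 and 735 of 15926 with totals, and 1195 and 844 of 7858 with TMM factors. Over all tested with totals, 5.37% were called higher after 1 h and 8.08% without cold, and 11.7% and 5.81% were called lower. With TMM factors 8.18% and 7.18% were called higher, and 6.01% and 6.64% lower. The part of these shares in the counts was not tested. The direction with more calls shared only with 1 h thus turned with the scaling.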
